A study of Ovis aries with 3 samples.

Results

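A set of 144 predicted miRNAs was examined in sheep gut, in the segments duodenum (DU), cecum (CE), and colon (CO). The miRNAs were chosen by their read counts: each row had a name beginning with novel_mir_ and 10 or more reads in each of the 3 libraries, and 17 listed rows were left out, 10 of which also reached 10 reads everywhere. The count files held 822 rows, of which 676 were predicted and 146 were known sheep miRNAs. Of the other predicted rows, 487 had 0 reads in at least 1 library and 28 had reads in every library but fewer than 10 in at least 1. Because the counts themselves selected the miRNAs, all levels and ratios below are descriptions without a test.

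Small RNA was sequenced from intestinal mucosal epithelial tissue of Small tailed Han sheep. For each segment, RNA from 3 ewes of 11 months was combined into 1 library, so no spread between animals could be measured. Counted reads numbered 14462675 for DU, 15072945 for CE, and 13769740 for CO. Levels are given as normalized reads, which are counts per 1000000 reads mapped to the genome, and 3 reads correspond to a level of 0.179 in DU, 0.176 in CE, and 0.181 in CO. Each log2 ratio has an exact 95% interval in parentheses, which covers counting error only.

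The label of the tissue was set against known sheep miRNAs that mark cell types. The epithelial miRNAs oar-miR-200a, oar-miR-200b, oar-miR-200c, and oar-miR-194 summed to 28477 normalized reads in DU, 20415 in CE, and 33447 in CO. For oar-miR-200b, the study's quantitative PCR did not follow the order of its reads. The study reported like trends for most of the miRNAs it tested. Among those were oar-miR-194 and, of the sequences described below, miR-142-5p, miR-1388-5p, miR-15b, and miR-141-3p. The markers of smooth muscle and mesenchyme (oar-miR-143, oar-miR-133, oar-miR-99a, and oar-miR-125b) summed to 284888, 438506, and 407524. This lay above the epithelial sum in every library. Nearly all of it was oar-miR-143, and the other 3 alone summed to 9607, 9405, and 8286, below the epithelial sum in every library. The lymphoid markers oar-miR-150 and oar-miR-181a summed to 1342, 1003, and 994. The listed markers miR-145, miR-223, miR-126, and miR-451 had no row among the known sheep miRNAs. In pooled tissue, fewer cells of a type and less RNA per cell cannot be told apart.

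A miRNA is cut from a hairpin precursor and guides a silencing complex to messenger RNAs, which it recognizes mainly through its seed, bases 2 to 8 counted from the 5′ end. miRNAs with the same seed form a family and can share targets, and miRNAs cut from the same transcript form a cluster. The numbers of the predicted rows are those of the count files, which differ from the numbers in the study's own lists and text. Predicted here means only that sheep had no entry for the sequence in the database that was used. By sequence, 47 of the 144 were identical with a conserved miRNA named in another species and 47 were nested with one, meaning that the shorter sequence lay wholly within the longer. A further 43 matched only unannotated candidates of the study and 7 matched none. The prefixes bta, chi, cgr, cfa, and hsa of those names stand for cattle, goat, Chinese hamster, dog, and human.

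The sequences of the 10 miRNAs with the highest mean level are shown because they carry most of the reads, with the seed in capitals.
novel_mir_320, identical with bta-miR-27b: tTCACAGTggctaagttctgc
novel_mir_113, identical with bta-miR-378: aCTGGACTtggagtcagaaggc
novel_mir_211, identical with bta-miR-100: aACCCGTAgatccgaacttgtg
novel_mir_55, nested with bta-miR-24-3p: tGGCTCAGttcagcaggaac
novel_mir_149, identical with bta-miR-92a: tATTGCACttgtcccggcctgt
novel_mir_195, nested with bta-miR-125a: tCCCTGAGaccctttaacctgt
novel_mir_307, nested with bta-miR-101: tACAGTACtgtgataactgaag
novel_mir_112, identical with chi-miR-145-3p: aTTCCTGGaaatactgttctt
novel_mir_2, identical with bta-miR-30e-5p: tGTAAACAtccttgactggaagct
novel_mir_151, nested with bta-miR-423-3p: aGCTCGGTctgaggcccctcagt

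The second set differed most between the segments or stands for the immune cell group, and the seed is again in capitals.
novel_mir_157, identical with cgr-miR-142-5p: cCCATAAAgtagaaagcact
novel_mir_246, nested with bta-miR-146b: tGAGAACTgaattccataggctg
novel_mir_114, nested with bta-miR-146a: tGAGAACTgaattccataggt
novel_mir_29, identical with bta-miR-155: tTAATGCTaatcgtgataggggt
novel_mir_181, identical with bta-miR-1388-5p: aGGACTGTccaacctgagaatg
novel_mir_408, nested with bta-miR-217: tACTGCATcaggaactgattgga
novel_mir_32, identical with bta-miR-15b: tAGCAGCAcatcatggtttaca
novel_mir_223, identical with bta-miR-184: tGGACGGAgaactgataagggt
novel_mir_99, identical with chi-miR-335-3p: tTTTTCATtattgctcctgacc
novel_mir_160, identical with bta-miR-365-3p: tAATGCCCctaaaaatccttat
novel_mir_42, no name: tCAAGGTCcgctgtgaacacgg
novel_mir_5, no name: tGAACTGTcttactcccacatct
novel_mir_203, no name: cTTCTGTCcgtcttgctacca
novel_mir_296, no name: tGATTGGTacttcttagagtga
novel_mir_297, no name: aTTGGCACgtcttggaatga
novel_mir_262, no name: tTCGGCGCcaccaccctgcgggt
novel_mir_69, identical with bta-miR-153: tTGCATAGtcacaaaagtgatc
novel_mir_49, no name: tCTGACTTccgttctctccttag

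The third set shows part of a group of 30 similar sequences among the 144, all taken from the 22 that hold a shared stretch of letters. The members without this stretch, among them novel_mir_300 and novel_mir_154, are not shown. Here the capitals mark the letters GAACTTT, or the same letters on the other strand, AAAGTTC.
novel_mir_128: tgaAAAGTTCgttcgggttttt
novel_mir_70: aAAAGTTCgttcgggttttt
novel_mir_67: aaaacccgcatGAACTTTttgg
novel_mir_44: gaaactggaacGAACTTTttgg
novel_mir_173: aaaaaaccgagtGAACTTTttg
novel_mir_48: aaaactcagatGAACTTTttgg
novel_mir_102: aaaaccttgatGAACTTTttga
novel_mir_231: aaaaacctgaagGAACTTTttg
novel_mir_167: aaaaacctgaagGAACTTTtt
novel_mir_166: aaaaccagaacGAACTTTttgt
novel_mir_43: aaaaccagaacGAACTTTttg
novel_mir_46: tggaaaaacccgaatGAACTTT
novel_mir_286: aaaaacccgaatGAACTTTtg
novel_mir_243: caaatctgaatGAACTTTttgg
novel_mir_60: caaacctgaatGAACTTTttgg
novel_mir_120: gaaacctgaatGAACTTTttgg
novel_mir_9: aaaatctgagtGAACTTTttgg
novel_mir_514: aaAAAGTTCgtttgggtttttc

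Levels spread over about 4 orders of magnitude in each library. In DU the 144 miRNAs ranged from 0.777 to 7658 normalized reads with a median of 12.0, in CE from 0.588 to 11427 with a median of 12.6, and in CO from 0.604 to 10843 with a median of 11.5. Together they held 958070 reads in DU, 1013038 in CE, and 951878 in CO. These were 6.62% (Wilson 95% interval 6.61 to 6.64%), 6.72% (6.71 to 6.73%), and 6.91% (6.90 to 6.93%) of all counted reads, so the share of the whole set was much the same along the gut. Of the reads of all predicted rows, however, the set took 27.5% in DU, 57.3% in CE, and 72.1% in CO. Because the set's own reads changed little, this difference lies in the reads of predicted rows outside the set. The 10 most abundant carried 64.5%, 74.3%, and 72.6% of the set's reads. Fewer than 10 normalized reads were seen for 67 miRNAs in DU, 69 in CE, and 69 in CO, and 1000 or more for 15, 14, and 13.

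**Figure D1:**
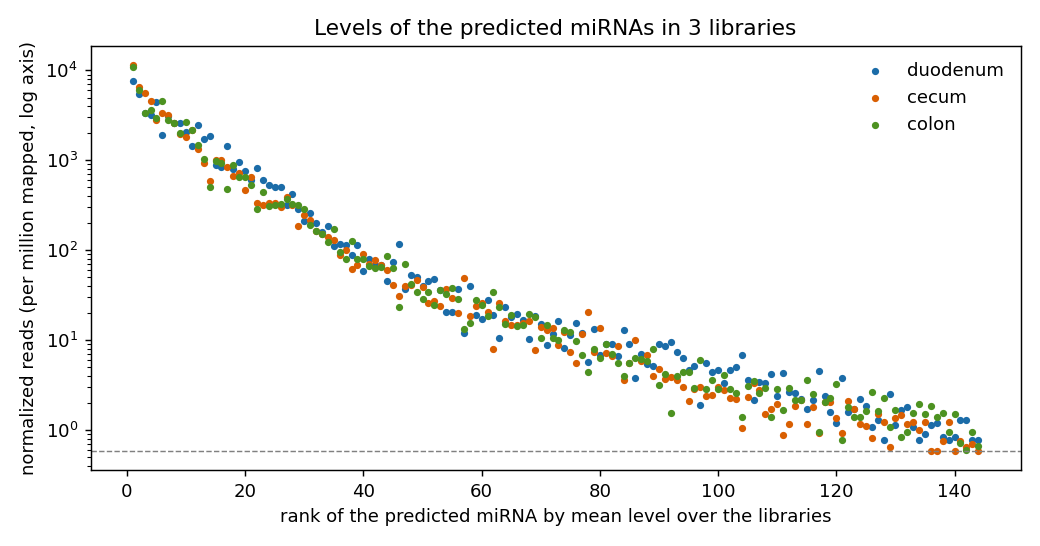
Normalized reads per 1000000 mapped reads (log axis) of the 144 predicted miRNAs, ordered by mean level, with 1 point for each library. The medians of 12.0, 12.6, and 11.5 in DU, CE, and CO lie close together, and the dashed line marks 10 reads in the CE library (0.588).

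The most abundant was novel_mir_320, which is miR-27b, a miRNA of fibroblasts and muscle, with 7658 normalized reads in DU, 11427 in CE, and 10843 in CO. It was followed by novel_mir_113, which is miR-378, a miRNA tied to energy metabolism, with 5421, 6476, and 6125. Both were lowest in DU. Next came novel_mir_211 (miR-100) with 3362, 5648, and 3386, novel_mir_55 (miR-24-3p) with 3163, 4598, and 3646, and novel_mir_149 (miR-92a) with 4443, 2832, and 2958. In this trio, the first pair was highest in CE and miR-92a was highest in DU. The remaining 5 of the 10 most abundant were the following. novel_mir_195 (miR-125a) had 1903, 3345, and 4553 normalized reads, novel_mir_307 (miR-101) 3102, 3224, and 2816, novel_mir_112 (miR-145-3p) 2591, 2619, and 2580, novel_mir_2 (miR-30e-5p) 2630, 1958, and 2040, and novel_mir_151 (miR-423-3p) 2068, 1828, and 2640. Only novel_mir_195 among these 10 differed 2-fold between any pair of libraries.

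The steadiest levels, among miRNAs with at least 100 reads in each library, included novel_mir_112. Its log2 ratio was 0.02 (-0.00 to 0.03) for CE against DU and -0.01 (-0.03 to 0.01) for CO against DU. This is the 3′ arm of miR-145, a marker of smooth muscle, while oar-miR-143, its neighbour in the genome, had 275281, 429102, and 399239 normalized reads. The known sheep miRNA therefore differed between DU and CE where the predicted arm did not differ beyond counting error on this scale. The other steady miRNAs were novel_mir_281 (miR-450a) with 68.8, 69.2, and 64.6 normalized reads, novel_mir_87 (miR-181b) with 160, 153, and 151, novel_mir_77 (miR-331-5p) with 16.7, 15.6, and 14.7, novel_mir_292 (miR-532) with 887, 1007, and 975, and novel_mir_307.

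At the low end, 5 miRNAs had 10 reads in their lowest library. novel_mir_120 had 13, 10, and 11 reads, novel_mir_552 14, 10, and 25, novel_mir_317 (miR-491) 20, 10, and 23, and novel_mir_271 (miR-105a) 22, 11, and 10 in DU, CE, and CO. Just outside the threshold, novel_mir_221 had 27, 9, and 13 reads, novel_mir_31 had 62, 20, and 9, novel_mir_6 had 27, 25, and 9, and novel_mir_124 had 31, 9, and 8. The rows on either side of the limit thus had like counts.

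Along the gut, 79 of the 144 miRNAs (54.9%) were highest in DU, 25 (17.4%) in CE, and 40 (27.8%) in CO. Among the 94 known sheep miRNAs with 10 or more reads in each library, the shares were 33.0%, 38.3%, and 28.7%. The intervals set the highest library apart from both others for 53 miRNAs highest in DU, 17 in CE, and 20 in CO. Over all 248 rows with 10 or more reads in each library, 86 (34.7%), 46 (18.5%), and 36 (14.5%) were set apart in this way. The DU and CO shares of the 144 lay near these, and the CE share was lower. The median log2 ratio of the 144 was -0.36 for CE against DU, -0.19 for CO against DU, and 0.08 for CO against CE. Over all 248 rows it was -0.15, -0.09, and 0.04, and for the known sheep miRNAs it was 0.28, 0.22, and -0.08. The medians of predicted and known miRNAs thus lay on opposite sides of 0 in every comparison, except for CO against CE when the library size was the sum of the counted reads (0.17 and 0.01). With edgeR's TMM scaling, which moved each log2 ratio by 0.12 for CE against DU and by 0.16 for CO against DU, the medians of the 144 were -0.24 and -0.03 and 67 miRNAs were highest in DU.

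For CE against DU, 26 of the 144 miRNAs (18.1%) were at least 2-fold lower in CE and 5 (3.47%) at least 2-fold higher. Over all 248 rows, 12.9% were 2-fold higher in DU and 7.26% in CE, and over the known sheep miRNAs 2.13% and 10.6%. For CO against DU, 16 (11.1%) were 2-fold higher in DU and 8 (5.56%) in CO, against 8.47% and 8.06% over all rows and 0% and 9.57% over the known miRNAs. For CO against CE, 13 (9.03%) were 2-fold higher in CO and 4 (2.78%) in CE, against 6.85% and 2.02% over all rows and 2.13% and 0% over the known miRNAs. The predicted miRNAs make up 144 of the 248 rows, so the background over all rows includes them. Where the whole interval had to lie past 2-fold, 9 miRNAs remained on the DU side and 4 on the CE side for CE against DU, 11 and 2 on the DU and CO sides for CO against DU, and 1 and 2 on the CO and CE sides for CO against CE.

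A steady order from DU over CE to CO was followed downward by 37 miRNAs and upward by 21. With each neighbouring interval apart from equal levels, 13 fell and 7 rose, against 10.5% and 6.45% of all 248 rows. These shares of the 144 lie near the background. Those that fell included novel_mir_408, novel_mir_181, novel_mir_157, novel_mir_246, novel_mir_114, and novel_mir_32, all at least 2-fold lower in CO than in DU. Those that rose were novel_mir_195, novel_mir_4 (miR-197), novel_mir_198 (miR-328), novel_mir_277 (miR-504), novel_mir_140 (miR-30f), novel_mir_290 (miR-500-3p), and novel_mir_386 (miR-660), of which only novel_mir_195 reached 2-fold. It had 2.39 times its DU level in CO.

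**Figure D2:**
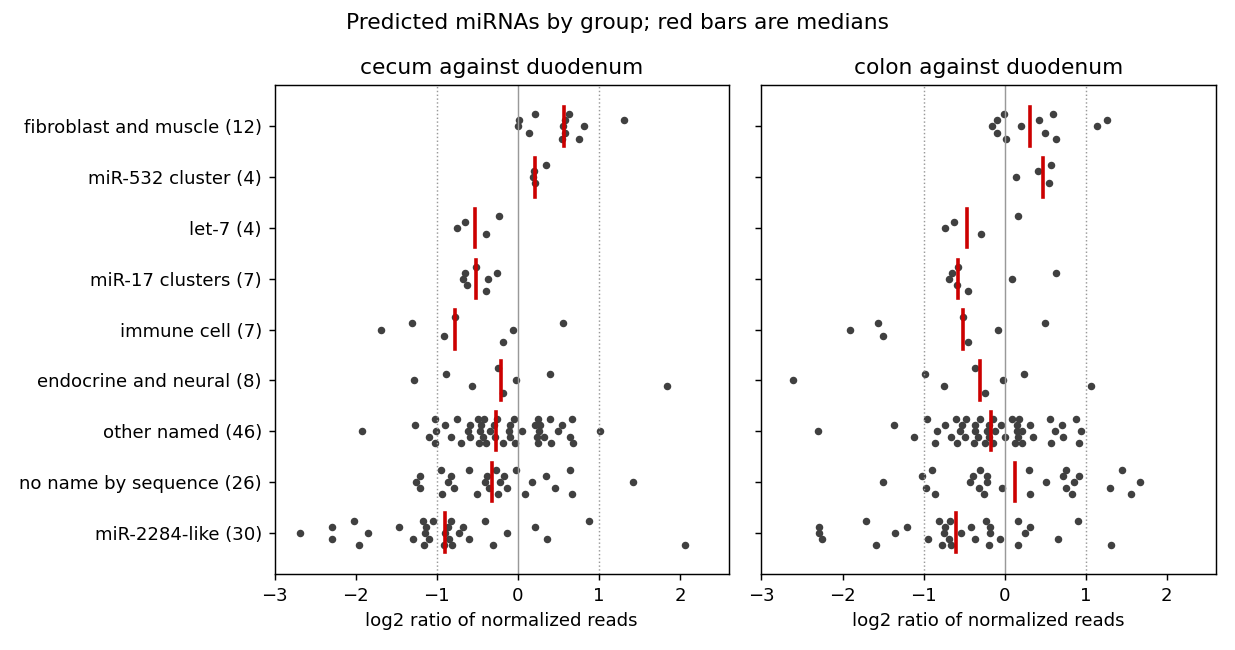
Log2 ratio of normalized reads of each of the 144 predicted miRNAs (points) for CE against DU and CO against DU, by group, with the number of miRNAs in parentheses and the median as a red bar. Dotted lines mark 2-fold, and the miRNAs of fibroblasts and muscle (median 0.57 for CE against DU) and the miR-2284-like miRNAs (-0.90) have the medians furthest apart in that comparison.

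The immune cell miRNAs grouped here were mostly highest in DU, but they were chosen after their values were seen, so their order is a description. This group held 7 miRNAs: miR-142-5p, which is made by blood cells, miR-146a and miR-146b, which restrain innate immune signalling, miR-155, which is raised in activated lymphocytes and macrophages, and miR-181b, miR-181d, and miR-342, which are abundant in lymphocytes. Their summed level was 5048 normalized reads in DU, 2362 in CE, and 1982 in CO, and 6 of 7 were highest in DU (5 with library sizes from clean reads, TMM, or DESeq2). novel_mir_157 (miR-142-5p) had 1886 normalized reads in DU, 587 in CE, and 504 in CO, which was 3.22 times and 3.74 times higher in DU. Its log2 ratios were -1.68 (-1.72 to -1.65) for CE and -1.90 (-1.94 to -1.87) for CO.

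The pair of miR-146 sequences shared its seed. novel_mir_246 (miR-146b) had 1440 normalized reads in DU, 841 in CE, and 486 in CO, with a log2 ratio of -1.57 (-1.60 to -1.53) for CO against DU. novel_mir_114 (miR-146a) had 824, 333, and 292, with -1.50 (-1.55 to -1.45). Both fell in the order DU, CE, CO, but miR-146b kept more of its DU level in CE than miR-146a did, with log2 ratios of -0.78 (-0.81 to -0.75) and -1.31 (-1.35 to -1.26). These sequences differ only near the 3′ end, so the authors' counting could have split reads between them.

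miR-155 (novel_mir_29) had 606, 322, and 444 normalized reads and was lowest in CE. miR-342 (novel_mir_225) had 114, 101, and 80.2, and miR-181b 160, 153, and 151. miR-181d (novel_mir_115) was the exception, with 17.4 in DU, 25.7 in CE, and 24.6 in CO. The known lymphoid marker oar-miR-150 had 289, 149, and 175 normalized reads, so it too was highest in DU. The part of immune cell content in these values was not tested.

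The group of fibroblast and muscle miRNAs went the other way. It held 12 miRNAs: miR-27b, miR-24-3p, miR-100, miR-99b, miR-125a, miR-145-3p, miR-199b, miR-195-3p, miR-497, miR-424-3p, miR-450a, and miR-335-3p, many of which are known from smooth muscle, fibroblasts, or vessel walls. None was highest in DU, 9 were highest in CE, and 3 in CO, but with the sum of the counted reads as library size 1 was highest in DU. The group was chosen with earlier results of these data known, so its shared order is a description. It leaves out novel_mir_182 (miR-499) and novel_mir_267 (miR-486), which are also known from muscle. These had 36.0, 23.9, and 36.0 and 40.0, 38.8, and 28.7 normalized reads, so neither was lowest in DU. Within the group, all 12 were higher in CE than in DU, but 4 were lower in CO than in DU. These were miR-145-3p, miR-199b, miR-497, and miR-450a, of which only miR-199b was lower beyond counting error. The levels of the 12 miRNAs in the group summed to 20936 normalized reads in DU, 30732 in CE, and 27967 in CO. Of the known smooth muscle and mesenchyme markers, oar-miR-143 (275281, 429102, and 399239), oar-miR-133 (236, 534, and 294), and oar-miR-125b (1853, 2852, and 2459) had the same order, while oar-miR-99a went the other way (7518, 6018, and 5532). The part of muscle or mesenchyme content in these values was not tested.

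In this group novel_mir_195 (miR-125a) had 1.76 times its DU level in CE and 2.39 times in CO, with log2 ratios of 0.81 (0.79 to 0.83) and 1.26 (1.24 to 1.28). novel_mir_99 (miR-335-3p) had 10.5, 26.1, and 23.2 normalized reads, a log2 ratio of 1.31 (1.06 to 1.57) for CE and 1.14 (0.88 to 1.41) for CO. It was the only miRNA of the 144 at least 2-fold above DU in both other segments. novel_mir_211 (miR-100) was raised in CE alone, with log2 ratios of 0.75 (0.73 to 0.76) for CE and 0.01 (-0.01 to 0.03) for CO.

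miR-99b, let-7e, and miR-125a are known to be cut from a shared cluster transcript. Their 3 predicted rows did not move alike: novel_mir_193 (miR-99b) had 1446, 2158, and 2179 normalized reads, novel_mir_194 (let-7e) 794, 675, and 892, and novel_mir_195 (miR-125a) 1903, 3345, and 4553. All were highest in CO, miR-99b by less than counting error over CE (log2 ratio 0.01, -0.01 to 0.03), but let-7e was lower in CE than in DU, where miR-99b and miR-125a were higher.

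**Figure D3:**
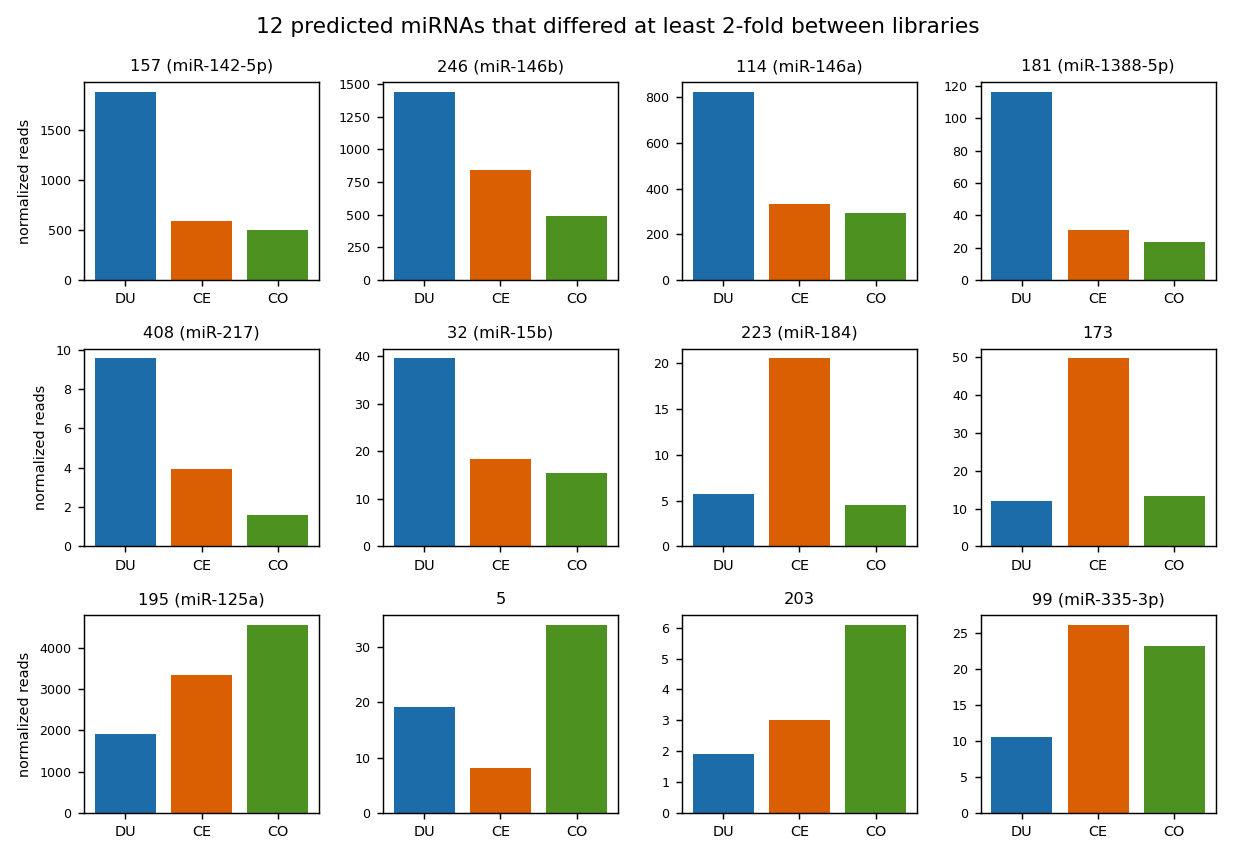
Normalized reads of 12 predicted miRNAs that differed at least 2-fold between libraries, with 1 bar for each library (DU, CE, CO; 1 pooled library each, so without error bars). miR-142-5p (1886, 587, and 504) and miR-217 (9.56, 3.94, and 1.57) fall from DU, novel_mir_173 and miR-184 peak in CE, and novel_mir_5, novel_mir_203, and miR-125a peak in CO.

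The miR-17 clusters and let-7 were examined next. Members of the miR-17 clusters promote cell division, and let-7 is known for restraining it. Of 7 predicted rows of the miR-17 clusters, all were lower in CE than in DU, 5 were also lower in CO, and none was past 2-fold. novel_mir_149 (miR-92a) had a log2 ratio of -0.65 (-0.67 to -0.63) for CE and -0.59 (-0.60 to -0.57) for CO. novel_mir_148 (miR-20a) had 963, 733, and 647 normalized reads and novel_mir_256 (miR-93) 260, 217, and 191. The exceptions in CO were novel_mir_282 (miR-20b) with 86, 68, and 132 reads and novel_mir_283 (miR-363) with 193, 127, and 204 reads, which are neighbours in the miR-106a cluster. The known oar-miR-106a, of the same cluster, had 115, 77, and 204 reads, so it was also highest in CO. miR-32 (novel_mir_36), which shares the seed ATTGCAC with miR-92a and miR-363, had 116, 68.7, and 80.2.

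The seed GAGGTAG was shared by 4 predicted rows and 7 known let-7 miRNAs. All 11 were lower in CE than in DU, except that oar-let-7b, at a log2 ratio of -0.09, came out above DU with TMM or DESeq2 library sizes. For CO against DU, only novel_mir_194 (let-7e) was higher, with a log2 ratio of 0.17 (0.13 to 0.20), while novel_mir_268 (miR-98) had -0.63 (-0.68 to -0.58) and the known let-7 miRNAs ranged from -0.83 for oar-let-7i to -0.22 for oar-let-7b. novel_mir_54 and novel_mir_210 each hold the whole sequence of a known sheep let-7 miRNA with added bases at the 3′ end. Their 118, 89.3, and 95.9 and 4.72, 3.00, and 2.84 normalized reads may therefore be longer reads of those known miRNAs and are uncertain as separate miRNAs.

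Other seeds shared with known sheep miRNAs gave both like and unlike ratios. In the miR-30 family, novel_mir_2 (miR-30e-5p) had a log2 ratio of -0.43 (-0.45 to -0.40) for CE against DU, but the known oar-miR-30a-5p, oar-miR-30b, oar-miR-30c, and oar-miR-30d had 0.01, 0.25, 0.14, and 0.27, and novel_mir_140 (miR-30f) 0.22 (0.13 to 0.31). With the seed ACCCGTA, novel_mir_211 (miR-100) and novel_mir_193 (miR-99b) had 0.75 and 0.58, while oar-miR-99a had -0.32. In the miR-148 family, oar-miR-148a had -1.33 and novel_mir_90 (miR-148b) -0.70 (-0.74 to -0.66), while oar-miR-152 had 0.30. With the seed AGCAGCA, novel_mir_32 (miR-15b) had -1.10 (-1.30 to -0.91), oar-miR-16b -0.32, and novel_mir_163 (miR-497) 0.22 (0.10 to 0.33). miR-15b, which restrains the cell cycle, had 39.6, 18.5, and 15.4 normalized reads. A shared seed therefore did not go with a shared order of the segments in these families. novel_mir_320 (miR-27b) and oar-miR-27a were both higher in CE than in DU, and novel_mir_147 (miR-19a) and oar-miR-19b were both lower. The unnamed novel_mir_108 and novel_mir_216 share the seeds of oar-miR-134-5p and oar-miR-134-3p, but the latter had at most 5 reads in any library.

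**Figure D4:**
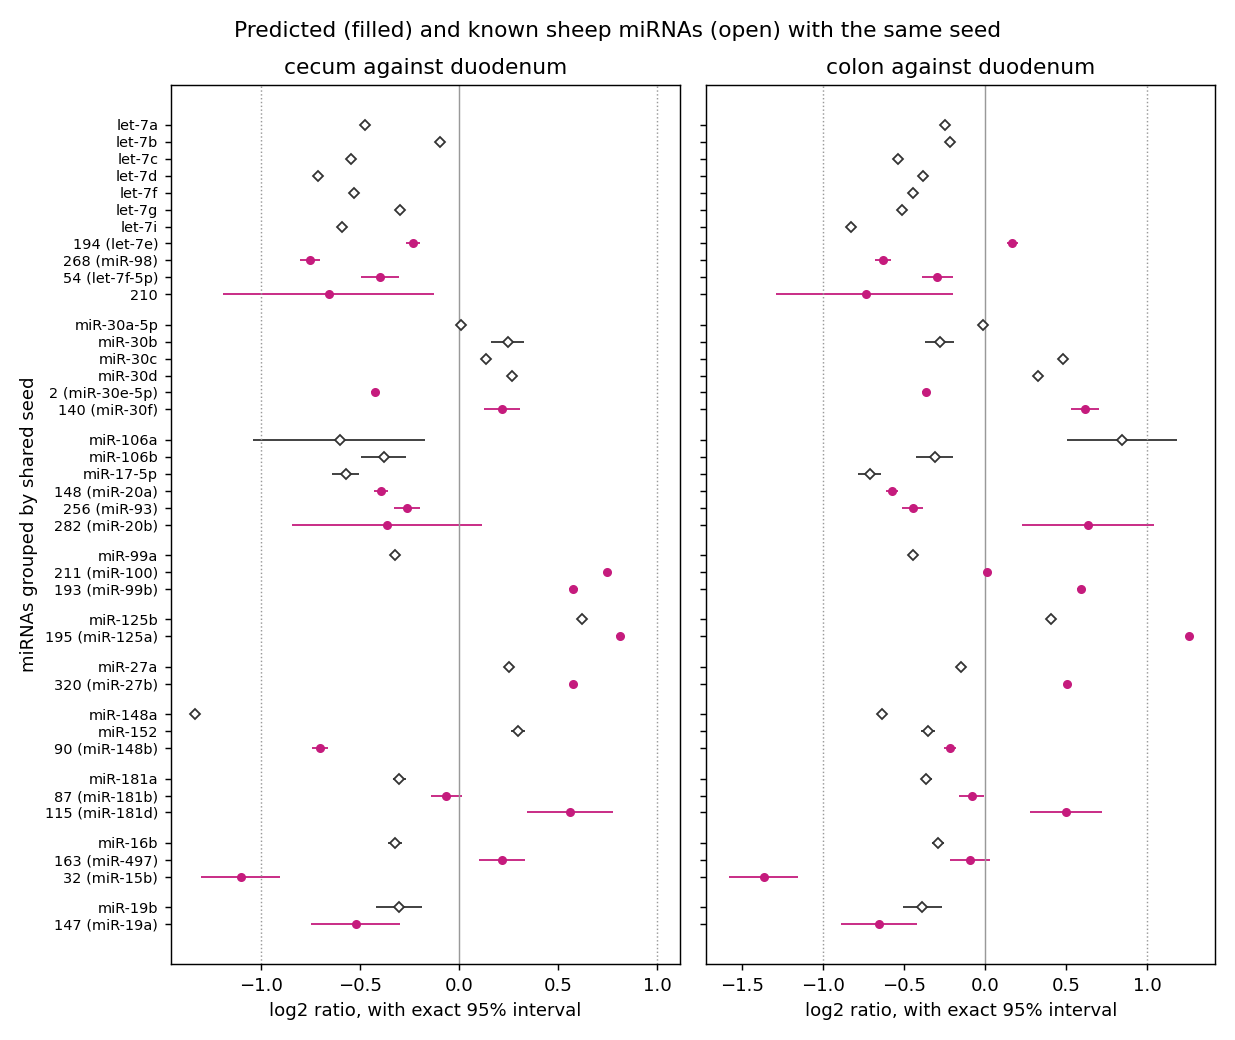
Log2 ratios for CE against DU and CO against DU of predicted miRNAs (filled circles) and known sheep miRNAs (open diamonds), grouped by shared seed, with exact 95% intervals of the read split. With mapped reads as library size all let-7 miRNAs lie left of 0 for CE against DU (oar-let-7b, at -0.09, passes 0 with TMM or DESeq2), while in the miR-99 family oar-miR-99a (-0.32) and miR-100 (0.75) lie on opposite sides.

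Single miRNAs of hormone-making and nerve cells were present at low levels, apart from novel_mir_37 (miR-7), a miRNA of neuroendocrine cells. It had 2470 normalized reads in DU, 1338 in CE, and 1465 in CO, with log2 ratios of -0.88 (-0.91 to -0.86) and -0.75 (-0.78 to -0.73). novel_mir_408 (miR-217), best known from the pancreas, had the lowest ratio of the 144 for CO against DU, with 9.56, 3.94, and 1.57 normalized reads from 160, 67, and 26 reads and a log2 ratio of -2.61 (-3.26 to -2.00). It was 6.09 times higher in DU than in CO.

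novel_mir_223 (miR-184), a miRNA of epithelial and neural cells, had 5.74, 20.5, and 4.47 normalized reads and was 3.58 times higher in CE than in DU and 4.59 times higher than in CO. The neuronal miR-124a (novel_mir_61) had 37, 37, and 36 reads, and its intervals included equal levels in every comparison. novel_mir_69 (miR-153), another neuronal miRNA, had 29, 20, and 60 reads, with a log2 ratio of 1.62 (0.87 to 2.43) for CO against CE. The 4 rows of the miR-532 cluster were all higher in CE and in CO than in DU, by log2 ratios of 0.18 to 0.35 for CE and 0.14 to 0.57 for CO, but novel_mir_291 (miR-188) had only 18, 21, and 26 reads.

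Among the remaining named rows, novel_mir_181 (miR-1388-5p) differed most between DU and CO. It had 116 normalized reads in DU, 30.7 in CE, and 23.7 in CO, from 1949, 522, and 392 reads, and was 3.79 and 4.92 times higher in DU. novel_mir_160 (miR-365-3p) had 6.87, 13.8, and 6.34, with the peak in CE. novel_mir_95, which is miR-141-3p of the epithelial miR-200 family, had 87.6, 62.3, and 129 normalized reads. It was 2.06 times higher in CO than in CE, and the sum of the known oar-miR-200a, oar-miR-200b, and oar-miR-200c, of the same family, had the same order (19315, 16109, and 27376). Of these, oar-miR-200b had 4450, 4395, and 8835 normalized reads, but the study's quantitative PCR found it relatively high in DU instead. The other epithelial marker, oar-miR-194, was highest in DU (9162, 4306, and 6071). novel_mir_20 (miR-186) had 1727, 928, and 1039, and novel_mir_119 (miR-874) 18.8, 7.82, and 18.2.

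The 26 rows with neither a name by sequence nor a place in the sequence group described below were all under 100 normalized reads, and 13 were highest in DU, 1 in CE, and 12 in CO. They supplied 4 of the 8 miRNAs that were 2-fold higher in CO than in DU, and 6 of the 13 that were 2-fold higher in CO than in CE. novel_mir_5 had 19.2, 8.06, and 34.0 normalized reads, which was 4.23 times higher in CO than in CE, with a log2 ratio of 2.08 (1.81 to 2.36). It was the only row of the 144 whose whole interval lay past 2-fold on the CO side of that comparison. novel_mir_203 had 32, 51, and 101 reads and was 3.19 times higher in CO than in DU, with a log2 ratio of 1.67 (1.09 to 2.29). novel_mir_296 had 20, 23, and 54 reads, novel_mir_297 13, 21, and 38, novel_mir_262 18, 14, and 44, and novel_mir_49 19, 10, and 31. The CO peaks of these 4 rest on few reads. The peak of novel_mir_42 was in CE, with 3.76, 10.1, and 6.34 normalized reads.

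A group of 30 predicted miRNAs formed by far the largest set of similar sequences. Sequences were joined where at least 17 bases overlapped with at most 3 mismatches on either strand, and the next largest set was let-7 with 4. Of these 30, 7 were identical or nested with miRNAs named miR-2284 or miR-2285, a large family described in cattle and other ruminants whose hairpins are similar to each other, and the others are called miR-2284-like here from their letters alone. 25 read in the main orientation and 5 in the opposite one. GAACTTT or AAAGTTC stood in 22 of the 30 (73.3%), in 1 of the other 114 predicted miRNAs (0.877%), and in 1 of the 94 known sheep miRNAs with 10 or more reads in each library (1.06%). The base at the 5′ end was A in 21 of the 30 and T in 3, whereas it was T in 64 of the other 114. Median GC content was 34.9% in the group and 47.8% in the others, and 80.0% and 44.7% were 22 bases long. The similarity of letters was used to form the group, so these values are a description.

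Hairpins listed by the study were found for 27 of the 30, and 12 of them had more than 1 hairpin, up to 8 for novel_mir_40. Of the other 114, a hairpin was found for 25, and 2 of these had more than 1. Apart from novel_mir_141 and novel_mir_139, these 25 were among the 26 rows with no name by sequence. Outside the group, hairpins were thus listed almost only for unnamed rows, so the shares of the 30 and the 114 are not a like comparison. The hairpins of novel_mir_231 and novel_mir_44 are shown to place the mature sequence, in capitals, near the 3′ end of a stem whose other arm carries letters of the opposite orientation.
hairpin of novel_mir_231: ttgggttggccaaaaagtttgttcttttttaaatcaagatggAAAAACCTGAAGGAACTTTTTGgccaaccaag
hairpin of novel_mir_44: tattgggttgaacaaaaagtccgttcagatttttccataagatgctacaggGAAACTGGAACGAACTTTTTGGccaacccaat

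Levels in this group were low. novel_mir_128, nested with bta-miR-2284x, had 534 normalized reads in DU, 333 in CE, and 313 in CO, and the other 29 were all under 50 in each library. The group summed to 779 normalized reads in DU, 524 in CE, and 499 in CO. Of the 30, 23 were highest in DU, 2 in CE, and 5 in CO, and with TMM scaling 22 were still highest in DU. The median log2 ratio was -0.90 for CE against DU and -0.60 for CO against DU. 14 were at least 2-fold lower in CE than in DU and 7 in CO, so the group supplied 14 of the 26 and 7 of the 16 such miRNAs among the 144. Without these 30, 12 and 9 of 114 remained, and 56 of 114 were highest in DU.

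The interval lay wholly below equal levels for 22 of the 30 in CE and 17 in CO, and wholly above for 2 in each. Over all 248 rows these shares were 44.0% and 39.9% below and 32.3% and 33.5% above. Low counts give wide ratios, and the part of this in the group's values was not tested. The 30 were also set beside other rows of like level, which had passed the same minimum of 10 reads. Below a mean of 10 normalized reads, the 23 rows of the group had median log2 ratios of -1.09 for CE and -0.67 for CO, and the 43 other rows had -0.26 and -0.03. Within the group, the 11 rows with 100 or more reads in DU had medians of -0.86 and -0.66, and the 19 with fewer had -1.04 and -0.23. This split uses DU reads, which also enter the ratios.

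**Figure D5:**
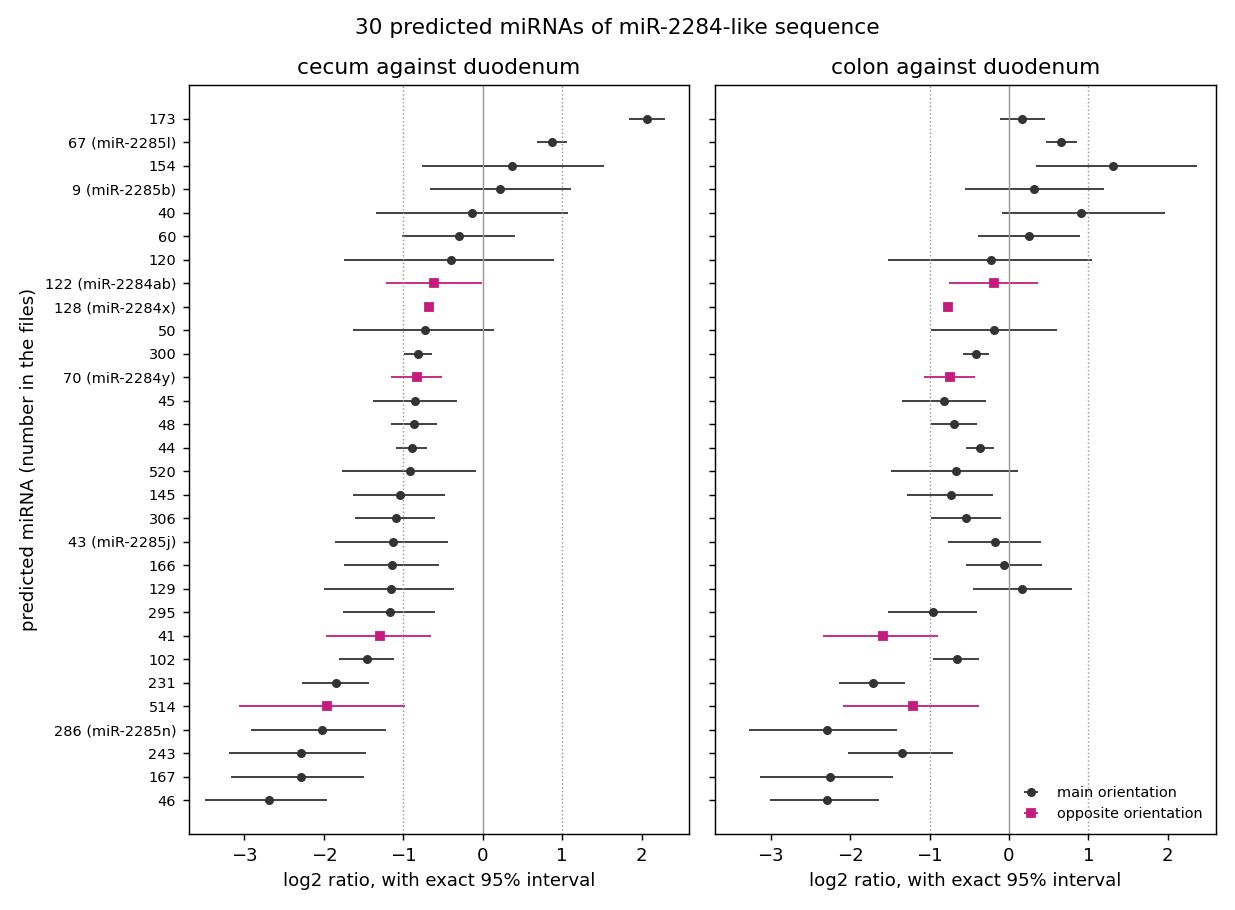
Log2 ratios with exact 95% intervals of the read split for the 30 miR-2284-like predicted miRNAs, ordered by the ratio for CE against DU. Of the 30 points, 26 lie left of 0 for CE and 23 for CO, and squares mark the 5 sequences of the opposite orientation, which all lie left of 0.

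The lowest ratios for CE against DU over all 144 miRNAs came from this group. novel_mir_46 had 114 reads in DU, 18 in CE, and 23 in CO and was 6.44 times higher in DU than in CE, with a log2 ratio of -2.69 (-3.49 to -1.96). novel_mir_167 had 77, 16, and 16 reads, novel_mir_243 72, 15, and 28, and novel_mir_286 (nested with bta-miR-2285n) 64, 16, and 13. Their log2 ratios for CE were -2.29 (-3.17 to -1.50), -2.29 (-3.20 to -1.47), and -2.02 (-2.91 to -1.22).

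Some rows overlapped with identical letters over at least 15 bases: novel_mir_128 with novel_mir_70, novel_mir_231 with novel_mir_167, novel_mir_166 with novel_mir_43, and novel_mir_46 with novel_mir_286. Reads of near-identical copies may have been split or counted more than once by the authors' counting, so single rows of this group are uncertain. novel_mir_231 and novel_mir_167 had -1.84 and -2.29 for CE and -1.72 and -2.25 for CO, novel_mir_128 and novel_mir_70 had -0.68 and -0.83 and -0.77 and -0.75, and novel_mir_166 and novel_mir_43 had -1.14 and -1.13 and -0.06 and -0.18. novel_mir_46 and novel_mir_286 had -2.69 and -2.02 for CE and -2.29 for CO in both rows.

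A few sequences of the group departed from this order. novel_mir_173 had 199 reads in DU, 845 in CE, and 221 in CO, which was 4.18 times higher in CE than in DU, with a log2 ratio of 2.06 (1.84 to 2.29), the highest of all 144. novel_mir_67, nested with bta-miR-2285l, had 343, 638, and 536 reads and was higher in both CE (0.87, 0.68 to 1.07) and CO (0.66, 0.46 to 0.86). novel_mir_154 had 13, 17, and 32 reads, with a log2 ratio of 1.31 (0.34 to 2.37) for CO. novel_mir_9, identical with bta-miR-2285b, had 22, 26, and 27 reads, too few to set its libraries apart.

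The seeds AAAACCT and AAACCTG were shared by 4 and 3 rows of the group. With the first, novel_mir_231 had 219, 62, and 66 reads, novel_mir_167 had 77, 16, and 16, novel_mir_129 had 44, 20, and 49, and novel_mir_154 had 13, 17, and 32. The first pair was highest in DU and the second pair in CO. For novel_mir_129, CO lay above DU by less than counting error (log2 ratio 0.17, -0.45 to 0.79). With the second, novel_mir_60 had 40, 33, and 47 reads, novel_mir_40 had 14, 13, and 26, and novel_mir_120 had 13, 10, and 11, and the intervals of CE and CO against DU included equal levels for all 3.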

How the data were processed

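The count files deposited by the authors hold raw counts of reads per mature sequence for 1 library per segment, without normalization. The study cleaned the reads, mapped them to the sheep genome with SOAP aligner, and predicted miRNAs with miReap. The submitters' processing notes name Bowtie, which the study's methods do not mention. Here counts were divided by the reads mapped to the genome, per 1000000. Log2 ratios have Clopper-Pearson 95% intervals from the binomial split of reads between both libraries, a step tested on simulated data. A 2-fold difference in normalized reads was counted without a test, because 1 library per segment gives no spread between samples. A test on reads, tried as a stricter call, compares libraries and not segments. Row numbers differ between the count files and the study's lists, so names were linked by identical or nested mature sequences, and hairpins were taken from the study's sequence lists. No genome coordinates are given.

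The members, groups, and lists were chosen with earlier results of these data known. Named were the 10 highest mean levels, the 4 largest ratios in each comparison and direction, the 6 steadiest with 100 or more reads in each library, 4 on each side of the read threshold, seed groups of 3 or more, seeds shared with known miRNAs, and overlapping sequences. Other names, such as the immune, neural, and miR-532 rows, were chosen after their values were seen. Alternatives were other library sizes (clean reads, file sum, TMM of edgeR 4.0.16, DESeq2 1.42.0), other read minimums (30 or 5), 1 read added, overlapping rows added up, and stricter calls. Python 3.11.15, scipy 1.17.1, and R 4.3.3 were used.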

Additional observations from a re-analysis of the deposited data

How the results depend on the processing

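No paired analysis was possible because there was 1 library per segment, and for the same reason no replicate could be left out. The median level in DU, CE, and CO was 7.33, 8.08, and 7.51 with all clean reads as library size, and 13.9 in DU and 13.8 in CO with the file sum. It was 14.9 in CE and 14.0 in CO with TMM, and 14 instead of 8 miRNAs were then 2-fold higher in CO than in DU. With at least 30 reads, the medians were 32.2, 26.1, and 28.3, and 15 and 8 miRNAs were 2-fold higher in DU than in CE and CO. Then 3 and 5 were 2-fold higher in CO than in DU and CE, 24 were highest in CO, and 13 of the miR-2284-like miRNAs were highest in DU. With at least 5 reads, the medians were 7.20, 5.65, and 5.76, and 25 were 2-fold higher in DU than in CO, 20 in CO than in CE, and 8 in CE than in CO. With the whole interval past 2-fold, 9 were higher in DU than in CE, 2 in CO than in DU, 1 in CO than in CE, and 2 in CE than in CO. With 2-fold and the exact Audic-Claverie test with Bonferroni correction as the call, which compares the reads of these libraries and not the segments, 3 were higher in CO than in DU and 4 in CO than in CE. Of the other 123 summary values, counts stayed within 1.5 times and median levels within counting error. Median ratios moved by less than the typical reach of a single row's interval to either side. That limit is wide for a median over the whole set, as with TMM the median for CO against DU went from -0.19 to -0.03. Of 945 ratios of named miRNAs under another setting, 212 moved out of their counting interval and 35 changed sign. No setting moved a ratio by more than 0.157 on the log2 scale, so a 2-fold ratio could not change sign. The counts of the miR-2284-like group under other settings were chosen after seeing the data. Rows near 10 reads have intervals wider than 2-fold, and animals were pooled, so counting error is the only error measured.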
